A study of Mus musculus with 24 samples.

Results

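Prss23, Edn1, Slc43a3, Plekha1, Cd83, Tspan33 and Bmp3 are 7 of the 24421 genes in the deposited table, and all 7 were lower in colon epithelium of the KO mice than in colon epithelium of both wild-type groups. They were chosen by measured values of these libraries. The choice took genes that were lower in KO colon at 2 weeks than in irradiated wild-type colon, or that had a fall specific to colon. Prss23, Edn1, Slc43a3, Plekha1 and Cd83 passed the test in the 2-week contrast and are treated as chosen by it, while Tspan33 and Bmp3 did not, and the contrast behind their choice is not stated. The lower level in KO colon is therefore how the genes were found and not a result. On that reading, the choice did not use the levels of the first 5 genes in KO mice at 8 weeks against non-irradiated wild-type mice. It also did not use their levels in ileum or along the gut of untreated mice. Whether a fall specific to colon also counted for any of the 5 is not stated, so independence of the choice is not certain for these comparisons. Those comparisons were tested for the 5 genes, while Tspan33 and Bmp3 are given as values without a test. Prss23 was the most reduced, to 4.02% of its wild-type level in KO colon at 8 weeks, while its ileal level was 98.6% of wild type.

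The intestinal lining is a single sheet of epithelial cells that is renewed from stem cells at the crypt base and shed at the surface, and signals from immune cells below it, such as IL-22, change which genes these cells use. The 7 genes stand in different parts of that biology. Edn1 encodes the precursor of endothelin-1, a peptide that acts on neighbouring cells through the receptors Ednra and Ednrb and is best known for constricting blood vessels. Bmp3 encodes a secreted member of the bone morphogenetic protein (BMP) family that restrains signalling by other BMPs, which in the gut favour differentiation over stem cell renewal. Prss23 encodes a secreted serine protease. Slc43a3 encodes a membrane transporter for purine nucleobases. Tspan33 encodes a tetraspanin of the TspanC8 group, which accompany the membrane protease Adam10. Cd83 encodes an immunoglobulin-family surface protein known from mature dendritic cells, where it keeps MHC class II at the surface by opposing ubiquitin ligases of the March family. Plekha1 encodes an adaptor that binds the membrane lipid phosphatidylinositol 3,4-bisphosphate, a product of PI3K signalling.

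The series sequenced RNA from sorted intestinal epithelium of 12 C57BL/6 mice aged 8 to 14 weeks, with colon and ileum from each mouse, which gave 24 libraries. Cells were sorted as negative for the leukocyte protein CD45 and positive for a tomato reporter under the Villin promoter, which is active in intestinal epithelium. The groups were KO early (KO, 2 weeks after chimerism, n = 4 mice), KO late (KO, 8 weeks after chimerism, n = 3), WT irradiated (irradiated wild type, 8 weeks after chimerism, n = 2) and WT non-irradiated (wild type without treatment, n = 3). Which gene the KO lacks is not in the sample labels; the title of the series refers to gut macrophages deficient in IL-10Rα. The text on its design mentions macrophages of the colon, whereas all samples here carry an epithelium label. KO early differed from WT irradiated in time after chimerism as well as in genotype, and KO late differed from WT non-irradiated also in having been made chimeric, so these cannot be told apart within either comparison. KO late and WT irradiated were matched in both respects, but the WT irradiated colon libraries had served in the choice of the genes, so their difference is given without a test. The libraries held 8.32 to 18.7 M reads in genes (median 13.2 M). Levels are normalised reads, that is reads divided by a size factor of the library, and are not corrected for gene length. They are compared between samples, and between genes only as a rough guide in the marker check that follows.

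The labels were checked against marker genes. The epithelial markers Vil1 (10192 to 31636 normalised reads in colon) and Epcam (12262 to 25830) were high in every library, the colonic gene Car1 reached at least 3651.5 in colon and at most 330.3 in ileum, and the ileal gene Fabp6 reached at least 11906 in ileum and at most 485 in colon. Markers of other cells were summed by list over the colon libraries. The sums lay between 235.7 and 809.4 normalised reads for 8 leukocyte genes, 139.9 and 540.5 for 7 B and plasma cell genes, 365.6 and 1252.9 for 11 myeloid and dendritic cell genes, 489.1 and 1303.2 for 11 endothelial genes and 543.9 and 978.6 for 11 fibroblast and smooth muscle genes, beside at least 65204 for 8 epithelial genes. Single markers reached read numbers like those of Cd83, Slc43a3 and Tspan33 in some libraries, among them the myeloid gene Cd14 (57.1 to 673.5), the leukocyte gene Ptprc (156.7 to 435.5), the B cell gene Pax5 (96.8 to 341.4) and the stromal gene Dcn (21.7 to 246.4), whereas the T cell gene Cd3e lay between 9.1 and 36.6 and the B cell gene Cd79a between 3.1 and 13.3. The ribosomal RNA row Rn45s took between 0.0642% and 29.4% of reads. Reads of 1458 olfactory and vomeronasal receptor genes, which gut epithelium is not known for, came to between 202 and 636 per M reads in WT non-irradiated colon, 208 and 549 in WT irradiated colon, 389 and 651 in KO early colon and 701 and 997 in KO late colon. In these bulk samples, fewer cells that carry a transcript and less of it per cell cannot be told apart.

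The start regions are shown for members that were lower together, because they are the sequences next to which any shared control would first be sought. The RefSeq promoter table, on build GRCm38.p6, held 4 of the 7 genes. Edn1 and Tspan33 had 1 start each, Plekha1 had 2 and Prss23 had 7. The 250 bases before the start are printed 5′ to 3′ on the gene's strand for Edn1 (chr13:42301226-42301475, plus strand), for the more upstream start of Plekha1 (chr7:130865474-130865723, plus strand) and for Tspan33 (chr6:29693964-29694213, plus strand). The deposited values do not tell the starts of a gene apart, and the second Plekha1 window and the 7 Prss23 windows are described but not printed. Capitals mark matches to the motifs searched.
Edn1: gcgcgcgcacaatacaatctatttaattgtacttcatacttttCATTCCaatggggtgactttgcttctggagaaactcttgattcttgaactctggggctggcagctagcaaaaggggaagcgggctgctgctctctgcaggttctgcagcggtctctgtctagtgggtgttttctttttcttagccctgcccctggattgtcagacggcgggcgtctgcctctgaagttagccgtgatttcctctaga
Plekha1: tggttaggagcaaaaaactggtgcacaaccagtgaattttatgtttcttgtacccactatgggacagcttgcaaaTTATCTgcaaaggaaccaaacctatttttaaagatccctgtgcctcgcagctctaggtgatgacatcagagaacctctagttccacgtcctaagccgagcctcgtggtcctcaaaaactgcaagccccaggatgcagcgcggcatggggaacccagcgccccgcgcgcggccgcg
Tspan33: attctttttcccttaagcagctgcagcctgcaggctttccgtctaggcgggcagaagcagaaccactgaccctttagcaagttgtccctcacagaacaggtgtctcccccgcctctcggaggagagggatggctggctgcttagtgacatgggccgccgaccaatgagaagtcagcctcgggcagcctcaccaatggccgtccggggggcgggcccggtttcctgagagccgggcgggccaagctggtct
The motifs, searched on both strands, were CATTCC for TEAD factors, TTCNNNGAA for STAT factors, TGANTCA for AP-1 and AGATAA for GATA factors. The Edn1 window held 1 match, to the TEAD letters, and the Plekha1 window held 1 match, to the GATA letters on the opposite strand. The Tspan33 window and the second Plekha1 window held none of the 4. Of the 7 Prss23 windows, which overlap in part, 1 held the GATA letters, 1 the STAT letters and 2 the AP-1 letters, and 4 held none. Of 32851 windows of this length in the table, 12.6% held the TEAD letters, 9.99% the GATA letters, 7.02% the STAT letters and 6.75% the AP-1 letters. GC content was 50.4% for Edn1, 52.8% for Plekha1 and 62.4% for Tspan33. No motif was shared by the 3 printed windows, while the GATA letters stood in 1 window each of Plekha1 and Prss23. A match is a description of letters, not a binding site.

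The secreted members are described first. Edn1 in colon stood at 651.1, 780.4 and 582.6 normalised reads in the WT non-irradiated mice and at 1048.6 and 730.8 in the WT irradiated mice. It stood at 173.7, 82.5, 69.1 and 184.2 in the KO early mice and at 237.8, 136.6 and 72.0 in the KO late mice. Every KO library was below every wild-type library, with the highest KO value at 237.8 and the lowest wild-type value at 582.6. In ileum the levels were below those of wild-type colon in all mice, at 48.1, 164.0 and 60.9 in WT non-irradiated, 130.6 and 26.5 in WT irradiated, 28.8, 62.7, 15.1 and 14.6 in KO early and 72.1, 79.2 and 8.5 in KO late. The ileal groups overlapped, and values within a group differed several-fold.

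Prss23 in colon stood at 1213.0, 1557.7 and 1407.1 normalised reads in WT non-irradiated mice, 1214.0 and 1228.9 in WT irradiated mice, 233.6, 76.5, 34.2 and 202.4 in KO early mice and 73.1, 47.5 and 47.3 in KO late mice. The wild-type values were tight and the KO early values wide, with mice 100 and 120 above mice 117 and 118. In ileum the same gene stood at 1436.5, 1011.0 and 1429.4 in WT non-irradiated, 1334.6 and 1303.6 in WT irradiated, 1775.7, 1120.7, 828.2 and 639.7 in KO early and 1226.9, 956.3 and 1697.1 in KO late. The ileal values of KO mice lay on both sides of those of wild-type mice.

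Bmp3 in colon stood at 1404.1, 1607.4 and 1706.0 normalised reads in WT non-irradiated mice, 1611.5 and 1875.7 in WT irradiated mice, 576.8, 531.0, 504.9 and 910.0 in KO early mice and 448.4, 159.1 and 303.8 in KO late mice. The KO late values all lay below the KO early values, a step not seen for Edn1, Plekha1 or Cd83, whose KO early and KO late values overlapped. How many of all genes had such a step was not counted. In ileum Bmp3 stood at 549.6, 581.6 and 432.8 in WT non-irradiated, 504.2 and 674.4 in WT irradiated, 700.5, 512.3, 474.6 and 623.0 in KO early and 544.7, 570.2 and 957.3 in KO late, with overlap between all groups.

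Among the membrane proteins, Slc43a3 in colon stood at 200, 209.9 and 139.8 normalised reads in WT non-irradiated mice, 200 and 225.3 in WT irradiated mice, 49.8, 41.2, 44.3 and 78.2 in KO early mice and 114.0, 89.1 and 55.2 in KO late mice. The highest KO value, 114.0, came closest to the wild-type range, whose lowest value was 139.8. In ileum it stood at 24.8, 47.7 and 45.2 in WT non-irradiated, 22.2 and 41.4 in WT irradiated, 31.0, 45.6, 45.3 and 45.9 in KO early and 20.0, 37.9 and 19.9 in KO late. KO early colon was thus at about the level of ileum.

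Cd83 in colon stood at 244.6, 261.2 and 138.2 normalised reads in WT non-irradiated mice, 126.7 and 160.6 in WT irradiated mice, 46.4, 38.2, 40.4 and 44.0 in KO early mice and 48.3, 48.3 and 35.5 in KO late mice. The 7 KO values fell in a narrow band, while the wild-type values were spread. In ileum it stood at 66.5, 52.2 and 47.1 in WT non-irradiated, 35.6 and 51.5 in WT irradiated, 26.6, 66, 46.3 and 36.5 in KO early and 41.4, 50.2 and 38.0 in KO late. The 12 ileal values, from 26.6 to 66.5, reached below and above the 35.5 to 48.3 of KO colon and stayed below wild-type colon.

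Tspan33 in colon stood at 110.9, 127.5 and 122.1 normalised reads in WT non-irradiated mice, 154.7 and 131.6 in WT irradiated mice, 98.7, 44.2, 65.2 and 67.7 in KO early mice and 45.8, 71.6 and 45.4 in KO late mice. In ileum it stood at 12, 23.9 and 25.8 in WT non-irradiated, 11.9 and 20.3 in WT irradiated, 44.3, 46.4, 53.4 and 45.9 in KO early and 21.4, 19.0 and 20.9 in KO late. It was the only member of the 7 whose ileal KO early values were all above the ileal values of every other group. Tspan33 is given without a test, and the share of all genes with such a separation was not counted. Summed markers of some other cells were also higher in KO early than in WT irradiated ileum. Endothelial sums were 758.1 to 1250.3 beside 469.4 to 654.9, and fibroblast and smooth muscle sums 638.5 to 844.3 beside 391.1 to 517.6. Leukocyte and myeloid sums of these groups overlapped. The part of other cells in the ileal values of Tspan33 was not tested.

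Plekha1, the lipid-binding adaptor, stood in colon at 2652.8, 2959.9 and 1891.7 normalised reads in WT non-irradiated mice, 2720.2 and 2023.7 in WT irradiated mice, 822.2, 592.5, 548.4 and 794.9 in KO early mice and 1014.5, 463.8 and 793.0 in KO late mice. In ileum it stood at 2389.2, 1500.2 and 2329.1 in WT non-irradiated, 3394.4 and 1712.6 in WT irradiated, 2294.4, 2752.0, 1131.5 and 1146.9 in KO early and 2396.3, 2084.5 and 2131.1 in KO late. KO colon was below wild-type colon and below ileum, and the ileal groups overlapped.

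**Figure D1:**
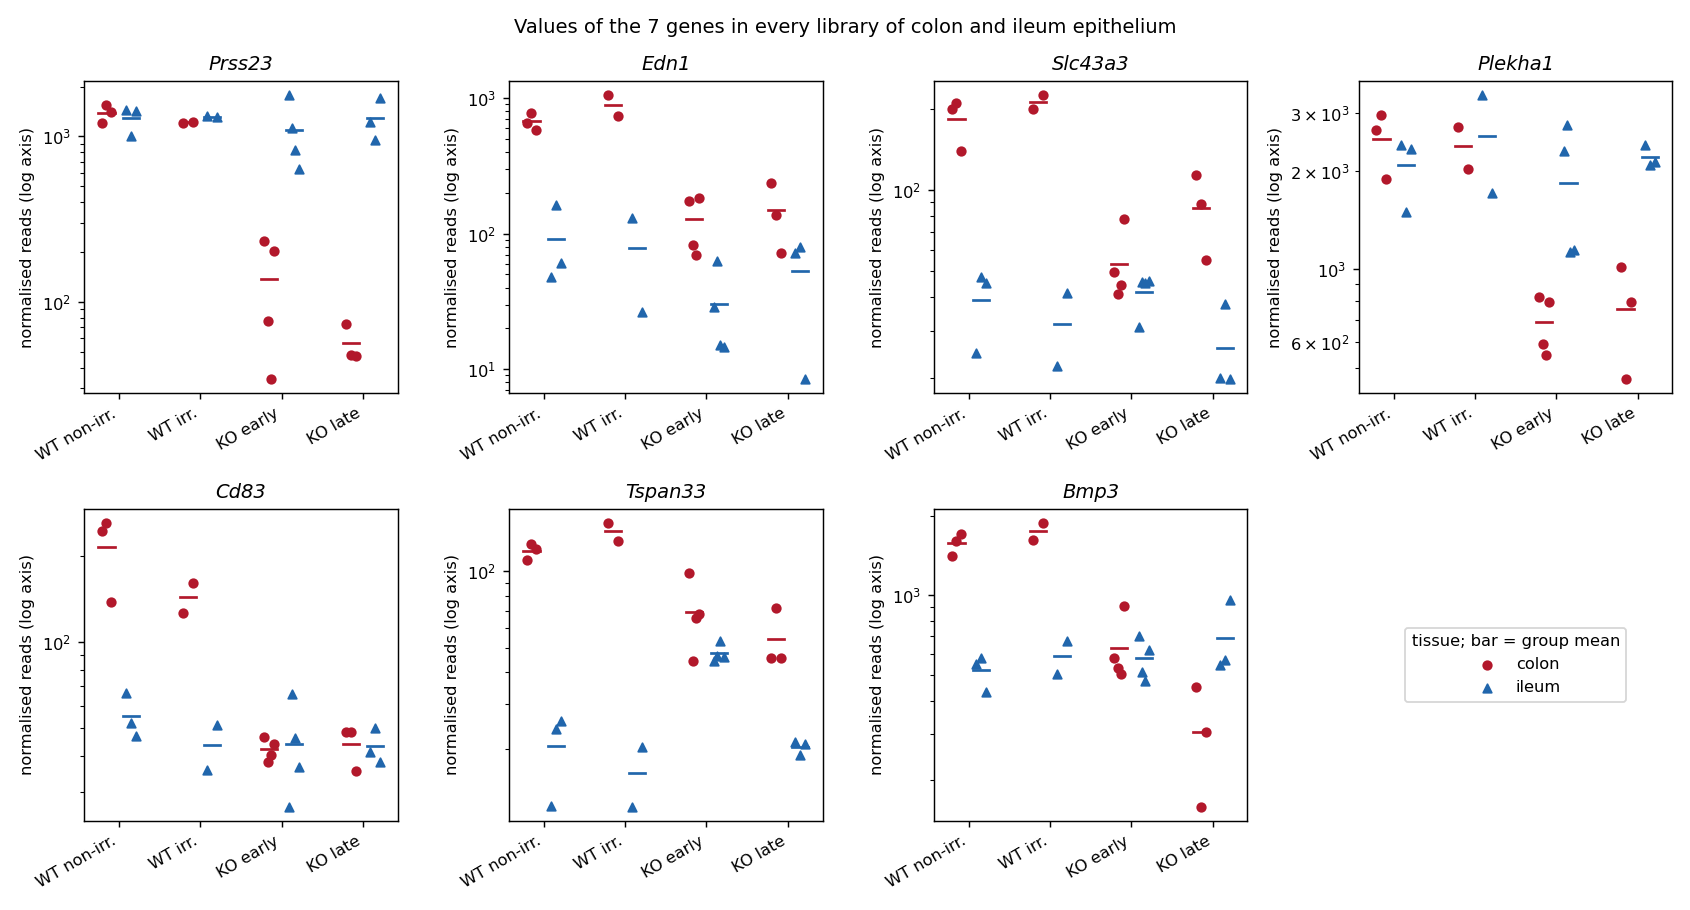
Normalised reads (log axis) of each of the 7 genes in every library, by group of mice, with colon as circles, ileum as triangles and a bar at each group mean. In colon all 7 KO libraries lie below all 5 wild-type libraries for every gene, and in ileum for none; Prss23 falls from 1213.0 to 1557.7 in wild-type non-irradiated colon to 47.3 to 73.1 in KO late colon.

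For 7 of the 7 genes, all 7 KO colon libraries lay below all 5 wild-type colon libraries. Over all genes tested in colon this held for 2.39%, and the choice of members used part of these libraries, so nothing is read from the count. In ileum it held for 0 of the 7, beside 0.261% of all genes tested there. On the log2(value + 1) scale, in which a fold change of low values is understated, the contrast that chose the first 5 genes, KO early minus WT irradiated in colon, was -3.52 ± 0.57 (SE) for Prss23, -2.90 ± 0.46 for Edn1, -2.02 ± 0.35 for Slc43a3, -1.79 ± 0.32 for Plekha1 and -1.74 ± 0.31 for Cd83. It was -1.50 ± 0.35 for Bmp3 and -1.09 ± 0.33 for Tspan33. In that contrast 0.0366% of 19145 genes passed an adjusted p of 0.05 as lower, which were 7 genes including 5 of the members. Just inside the threshold were Plekha1 and Cd83, each at an adjusted value of 0.0419, together with the microRNA gene Mir6240 (log2 difference -1.45, 0.0421). Just outside were Timp3 (-1.57, 0.051), an inhibitor of metalloproteinases, and the lectin gene Clec2e (-2.14, 0.0563).

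The other colon contrasts share libraries with the one that chose the genes and are given as values only. Against WT non-irradiated, KO early differed by -3.70 for Prss23, -2.51 for Edn1, -2.27 for Cd83, -1.85 for Plekha1, -1.78 for Slc43a3, -1.35 for Bmp3 and -0.85 for Tspan33. At 8 weeks after chimerism in both groups, KO late minus WT irradiated was -4.45 for Prss23, -2.71 for Edn1, -2.64 for Bmp3, -1.70 for Plekha1, -1.69 for Cd83, -1.41 for Tspan33 and -1.35 for Slc43a3. All 7 genes were lower in KO late colon than in these WT irradiated mice, but the same WT irradiated colon libraries had served in the choice. From KO early to KO late, Prss23 differed by a further -0.94 and Bmp3 by a further -1.13 on the log2 scale, Slc43a3 differed by 0.67 in the other direction, and Edn1, Plekha1, Cd83 and Tspan33 differed by between -0.32 and 0.19. Between both wild-type groups, WT irradiated minus WT non-irradiated, the 7 genes differed by between -0.53 (Cd83) and 0.39 (Edn1), and their colon values overlapped for Edn1, Slc43a3, Plekha1, Cd83, Prss23 and Bmp3 but not for Tspan33.

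In KO late mice against WT non-irradiated mice, 4 of the 5 genes fell in colon. The means compared share no library with the contrast that chose the genes, but the spread was estimated over all 4 colon groups, which include the libraries of that contrast. Fitted on the 6 compared libraries alone, the same 4 genes were called, with limma adjusted p-values of 1.1e-05 for Prss23, 0.00793 for Cd83, 0.00976 for Edn1 and 0.0161 for Plekha1, and 0.166 for Slc43a3. In the fit over all 4 groups Prss23, Edn1, Plekha1 and Cd83 were called with limma at an adjusted p under 0.05 over all 19145 genes, of which 1.46% were called lower and 1.02% higher. Prss23 went from 1393 ± 173 normalised reads (SD, n = 3) to 56.0 ± 14.8 (n = 3), a log2 difference of -4.64 ± 0.54 (SE, limma adjusted p = 0.000725). Cd83 went from 215 ± 66.7 to 44.0 ± 7.39, a log2 difference of -2.22 ± 0.29 (limma adjusted p = 0.00188). The KO late and wild-type values of both genes were far apart, and for Cd83 mouse 75 was the nearest of the wild-type mice.

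Edn1 went from 671 ± 100.4 normalised reads to 149 ± 83.6, a log2 difference of -2.32 ± 0.44 (limma adjusted p = 0.0138). Plekha1 went from 2502 ± 549.9 to 757 ± 277, a log2 difference of -1.77 ± 0.30 (limma adjusted p = 0.00779). Slc43a3 stood at 183 ± 37.9 in WT non-irradiated and 86.1 ± 29.5 in KO late, a log2 difference of -1.12 ± 0.33 that did not pass (limma adjusted p = 0.0880). For each of these genes the KO late values lay below the WT non-irradiated values, which held for 12.6% of all genes tested in colon. The 2 genes given without a test differed by -2.49 (Bmp3) and -1.16 (Tspan33) on the log2 scale, while the median over all 19145 genes was -0.03.

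The fall in KO late colon went along with other differences between these libraries. With the receptor reads, which were higher in KO late colon, as a covariate, 2 of the 5 genes were called (Prss23 and Cd83), with limma adjusted p-values of 0.218 for Edn1 and 0.203 for Plekha1. Without WT non-irradiated mouse 75, Slc43a3 was also called (limma adjusted p = 0.0110), so all 5 were. The counts of all called genes moved far more without that mouse, to 2944 lower and 4688 higher. Among the WT non-irradiated colon libraries, that of mouse 75 was nearest to KO late in Rn45s share and in receptor reads. Its receptor reads were 636 per M, beside 202 and 205 in mice 72 and 73. The part of these differences in the calls was not tested.

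**Figure D2:**
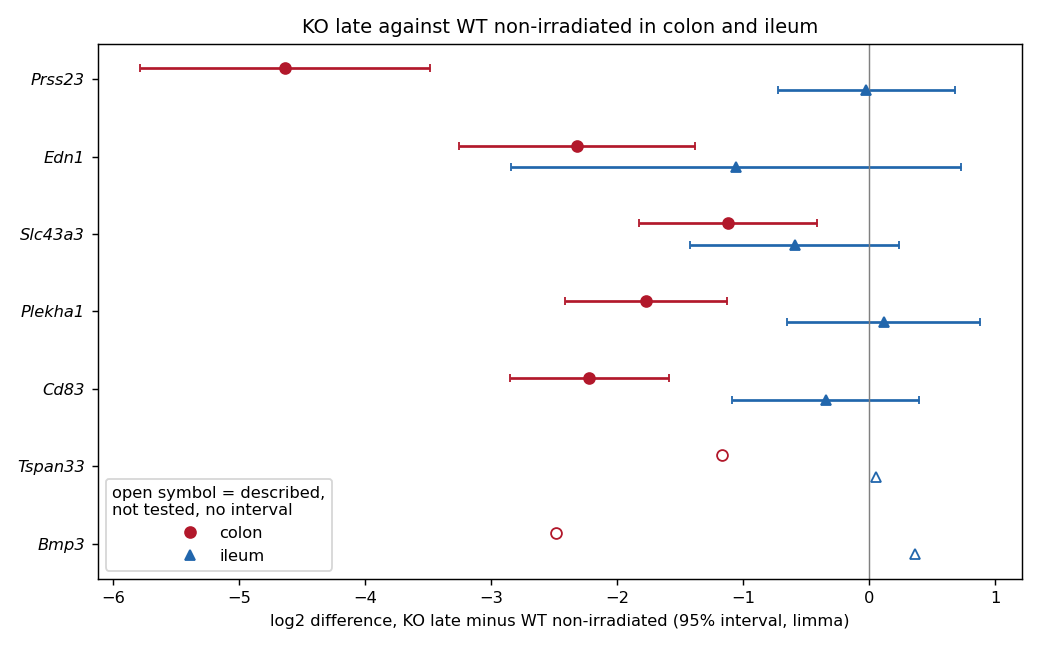
Log2 difference of KO late minus WT non-irradiated for each gene, in colon (circles) and ileum (triangles), with 95% limma intervals for the 5 tested genes and open symbols without interval for Tspan33 and Bmp3. The colon intervals of all 5 tested genes lie below 0, while every ileum interval spans 0.

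In ileum, none of the 5 genes passed the test in either comparison of KO with wild type. For KO early against WT irradiated, 0% of the 19122 genes tested passed with limma and with edgeR, while 4750 genes had an unadjusted p under 0.05, among them 0 of the 5, and DESeq2 called 155 genes higher and 36 lower, also without any of the 5. The log2 differences were -0.38 for Prss23 (95% interval -1.12 to 0.36), -0.51 for Plekha1 (-1.32 to 0.30) and -0.04 for Cd83 (-0.83 to 0.74). They were 0.44 for Slc43a3 (-0.44 to 1.31) and -1.20 for Edn1 (-3.09 to 0.70). Bmp3 differed by -0.03 and Tspan33 by 1.55, given without a test.

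For KO late against WT non-irradiated in ileum, limma called 0% of 19122 genes, edgeR also called none, and DESeq2 called 16 higher and 10 lower, again without any of the 5. With limma, 653 genes had an unadjusted p under 0.05, among them 0 of the 5. The log2 differences were -0.02 for Prss23 (95% interval -0.72 to 0.68), 0.12 for Plekha1 (-0.65 to 0.88), -0.34 for Cd83 (-1.08 to 0.40), -0.59 for Slc43a3 (-1.42 to 0.24) and -1.06 for Edn1 (-2.84 to 0.73). The intervals of Prss23, Plekha1 and Cd83 exclude the point estimate of their own fall in colon, and those of Edn1 and Slc43a3 do not. This takes no account of the error of the colon estimate, and the interaction below compares the tissues directly. Without a test, Bmp3 differed by 0.37 and Tspan33 by 0.06. Against WT irradiated mice of the same time after chimerism, the ileal log2 differences of KO late, also without a test, were -0.07 for Prss23, -0.66 for Edn1, -0.28 for Slc43a3, -0.13 for Plekha1, 0.0025 for Cd83, 0.37 for Tspan33 and 0.19 for Bmp3.

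Whether the KO late difference itself differed between colon and ileum was tested as an interaction over all 24 libraries. It passed for 1 of the 5 genes, Prss23, whose colon difference was lower than its ileum difference by 4.62 on the log2 scale (interaction -4.62 ± 0.68, limma adjusted p = 0.00192), where 0.0868% of 19588 genes were called lower and 0.225% higher. It was -1.88 ± 0.44 for Cd83 (limma adjusted p = 0.0669) and -1.89 ± 0.49 for Plekha1 (limma adjusted p = 0.112). It was -1.26 ± 1.02 for Edn1 (limma adjusted p = 0.472) and -0.53 ± 0.50 for Slc43a3 (limma adjusted p = 0.531). Colon and ileum came from the same mice, and with mouse as a replicate block 3 of the 5 passed, Prss23 at 4.3e-05 and Plekha1 and Cd83 at 0.0198 each (limma adjusted p). Edn1 and Slc43a3 did not pass in any of the alternatives tried for this interaction, and 95% intervals of -3.38 to 0.86 and -1.57 to 0.51 leave both a colon-biased fall and none within their bounds. The untested values were -2.85 for Bmp3 and -1.22 for Tspan33. Whether a fall specific to colon counted in the choice of any of the 5 genes is not stated. The interaction measures such a fall, so it may not be independent of the choice and is not read as support for it.

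In untreated mice the 5 genes differed in where along the gut they are used. In WT non-irradiated mice 3 of the 5, Edn1, Slc43a3 and Cd83, were higher in colon than in ileum, a call that 8.27% of 19588 genes had in that direction and 6.39% in the other. The log2 difference, colon minus ileum, was 3.07 ± 0.72 for Edn1 (limma adjusted p = 0.00401), 2.23 ± 0.35 for Slc43a3 (limma adjusted p = 6.45e-05) and 1.90 ± 0.31 for Cd83 (limma adjusted p = 8.66e-05). Colon and ileum values did not overlap for any of the 3. The share of all genes for which this held was not counted, so nothing is read from it. Prss23 (0.12, 95% interval -0.88 to 1.11, limma adjusted p = 0.938) and Plekha1 (0.28, -0.44 to 0.99, limma adjusted p = 0.746) did not pass. Tspan33 and Bmp3, without a test, were at 2.56 and 1.60. The call of Edn1 was lost without WT non-irradiated mouse 72 (limma adjusted p = 0.0678).

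The same colon minus ileum difference is given for the other groups as a description. For Cd83 it was 1.71 in WT irradiated and 0.02 in both KO early and KO late, so that KO colon stood at the ileal level. For Slc43a3 it was 2.77 in WT irradiated, 0.31 in KO early and 1.70 in KO late. For Edn1 it was 3.86, 2.16 and 1.81 in the same order, so that KO colon remained above ileum. Prss23 and Plekha1, which had similar levels in both tissues of wild-type mice (-0.11 and -0.04 in WT irradiated), were below ileum in KO colon, by -3.25 and -4.50 for Prss23 and by -1.32 and -1.61 for Plekha1 in KO early and KO late. Bmp3 passed from 1.57 in WT irradiated to 0.10 in KO early and -1.26 in KO late, and Tspan33 from 3.12 to 0.48 and 1.34.

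**Figure D3:**
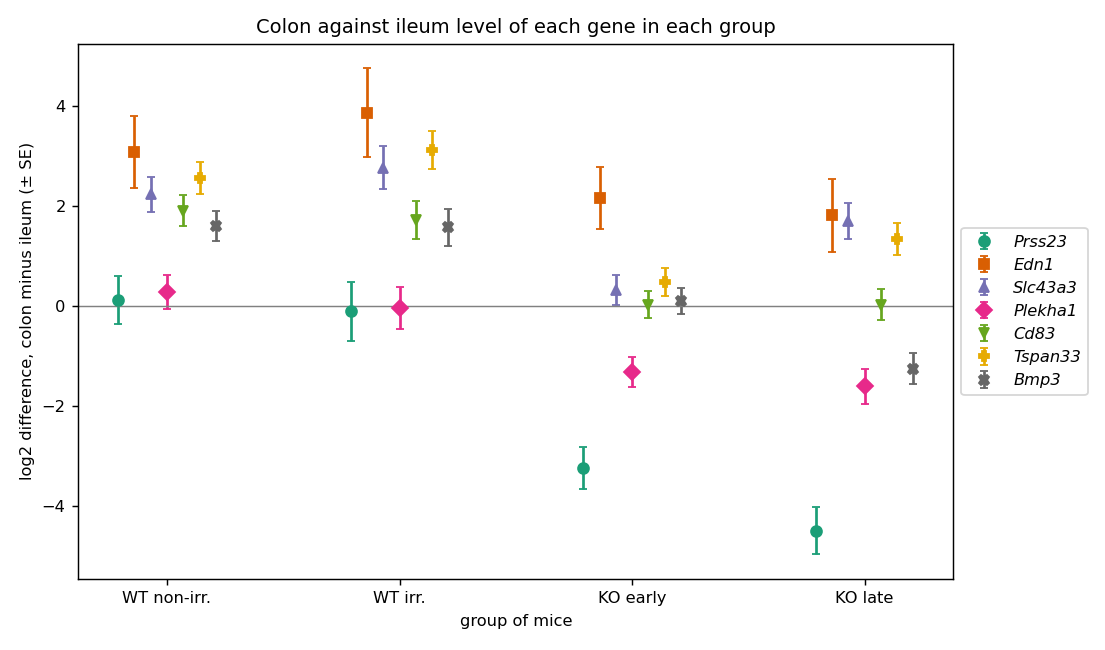
Log2 difference of colon minus ileum (points, ± SE from the fit over 24 libraries) for each gene in the 4 groups of mice, with a line at equal levels. Edn1, Slc43a3, Cd83, Tspan33 and Bmp3 lie above 0 in both wild-type groups, whereas Prss23 and Plekha1 lie near 0 there and fall to -4.50 and -1.61 in KO late.

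The genes that work with each member were described from 7 lists with 117 further genes of the table reported here, of which 114 could be tested in colon. In KO late against WT non-irradiated colon, 3 of the 114 fell and 1 rose, and 110 did not pass, beside 1.46% of all genes called lower and 1.02% higher, so nothing is read from the counts about the partners as a group. The 3 that fell were Edn2, Bmp8a and Smad6, and the 1 that rose was Slc28a3. The median difference of 6 of the 7 lists lay between -0.17 and 0.39, beside -0.03 over all genes.

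In the endothelin list, 1 of 7 tested genes fell (median 0.39). Edn2, a second endothelin ligand, stood in colon at 65.0, 104.2 and 72.3 normalised reads in WT non-irradiated, 102.9 and 65.4 in WT irradiated, 73.4, 36.7, 31.1 and 39.1 in KO early and 24.8, 10 and 21.7 in KO late. Its KO late values were below those of all other groups, an order whose share among all genes was not counted. The log2 difference of KO late from WT non-irradiated was -2.10 ± 0.41 (limma adjusted p = 0.0167). The receptors did not pass, with log2 differences of 1.22 ± 0.49 for Ednra (limma adjusted p = 0.123) and 0.93 ± 0.51 for Ednrb (limma adjusted p = 0.215). The converting enzyme Ece1, which cuts the endothelin precursor, was at -0.51 ± 0.36 (limma adjusted p = 0.317). In WT non-irradiated mice Edn2 went the other way from Edn1 along the gut, lower in colon than in ileum (log2 difference -1.29 ± 0.43, limma adjusted p = 0.0490).

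In the BMP list, 2 of 29 tested genes fell and none rose (median -0.15). Bmp8a, a BMP ligand, stood in colon at 233.2, 214.5 and 147.1 normalised reads in WT non-irradiated and at 68.1, 76.6 and 89.8 in KO late (log2 difference -1.31 ± 0.31, limma adjusted p = 0.0390). Smad6, an inhibitor inside the cell that BMP signalling induces, stood at 533.9, 565.9 and 384.9 in WT non-irradiated and at 236.6, 221.5 and 208.1 in KO late (log2 difference -1.13 ± 0.28, limma adjusted p = 0.0495). KO late values of both genes lay below those of WT non-irradiated, which held for 12.6% of all genes tested in colon. Bmp2, the ligand type that Bmp3 restrains and like Bmp3 the higher in colon of WT non-irradiated mice (1.48 ± 0.34, limma adjusted p = 0.00318), was at -0.91 ± 0.34 in KO late colon and did not pass (limma adjusted p = 0.111).

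In the list of nucleobase and nucleoside transport and salvage, 1 of 17 rose and none fell (median -0.17). Slc28a3, which brings nucleosides into cells with sodium, stood in colon at 152.9, 167.9 and 172.0 normalised reads in WT non-irradiated, 226.3 and 187.4 in WT irradiated, 632.4, 387.0, 1279.3 and 512.9 in KO early and 1461.7, 2635.6 and 2433.2 in KO late. Its KO and wild-type values did not overlap (KO late minus WT non-irradiated, log2 difference 3.68 ± 0.36, limma adjusted p = 0.000356). For how many of all genes KO lay above wild type in this way was not counted. Of the 22 genes of the PI3K list reported here, none passed with limma (median -0.12), and 4 had an unadjusted p under 0.05. Plekha2, the closest relative of Plekha1 with the same lipid preference, was at 0.52 ± 0.26 and did not pass (limma adjusted p = 0.177).

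No gene was called by limma in the lists around Prss23, Tspan33 and Cd83, where 7 of 20, 1 of 6 and 8 of 13 had an unadjusted p under 0.05. Among 20 serine proteases and inhibitors the median was -0.02, and Prss22, at 3.28 ± 0.90, had the largest difference (limma adjusted p = 0.0736). Among 6 TspanC8 tetraspanins and ADAM proteases the median was -0.12, and Adam10 was at 0.42 ± 0.23 (limma adjusted p = 0.216). Among 13 genes of MHC class II, its regulators and co-stimulation the median was 1.41, opposite in sign to Cd83. H2-Aa, an MHC class II chain, stood at 841, 8903 and 180 in WT non-irradiated colon and at 6503.1, 3747.3 and 9269.4 in KO late colon, so the groups overlapped through mouse 73 (log2 difference 2.46 ± 0.96, limma adjusted p = 0.118).

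**Figure D4:**
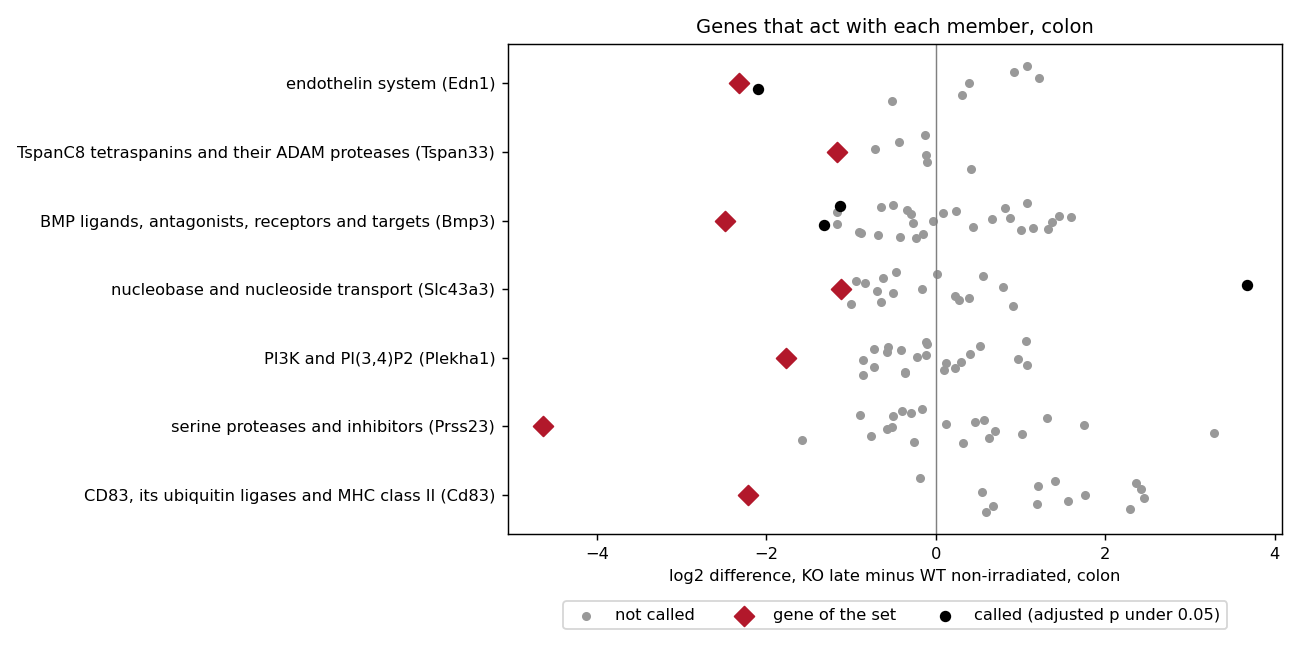
Log2 difference of KO late minus WT non-irradiated in colon for the genes of 7 lists, with the member each list belongs to as a diamond, genes called by limma in black and others in grey. The members were chosen for being low in KO colon, so their place at or near the low end of each list is not a result. The called partners are Edn2, Bmp8a and Smad6 on the left and Slc28a3 on the right.

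In ileum of KO early against WT irradiated mice, 0 of 115 tested partners passed, as did none of all genes with limma. In WT non-irradiated mice, 11 of 115 partners were higher in colon and 17 lower, beside 8.27% and 6.39% of all genes. Slc28a2, another sodium-driven nucleoside transporter, was far lower in colon (log2 difference -6.63 ± 0.31, limma adjusted p = 1.44e-12), and so was the adenosine-degrading enzyme Ada (-5.01 ± 0.42, limma adjusted p = 6.79e-09), whereas Slc43a3 was higher. The endothelin-degrading peptidase Mme was lower in colon (-5.73 ± 0.45, limma adjusted p = 2.2e-09), the tissue in which Edn1 was higher. Serpinb5, a serpin (2.78 ± 0.23, limma adjusted p = 4.71e-09), and the membrane protease Tmprss2 (1.99 ± 0.27, limma adjusted p = 7.74e-06) were higher in colon.

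Over the 12 colon libraries the 7 genes varied together, with Pearson's r of log2 values between 0.70 and 0.95 over the 21 pairs (median 0.89). All points share the same libraries, which fall into KO and wild-type mice, and the genes were chosen for being lower in one of these, so the values are a description. For each member the 3 most similar genes were taken from the 10667 or 10668 other genes whose colon mean was 100 normalised reads or more. Prss23 was nearest to Homer2 (r = 0.97, Spearman's rho 0.853), Hpgd (0.97, 0.958) and Abcb1a (0.969, 0.874). Hpgd encodes the enzyme that degrades prostaglandins and Abcb1a an export pump for drugs and xenobiotics.

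Edn1 was nearest to Cep128 (r = 0.969, rho 0.909), Serinc5 (0.963, 0.937) and Tox3 (0.959, 0.951). Plekha1 was nearest to Serinc5 (0.976, 0.958), Pdlim1 (0.974, 0.972) and Fam189a2 (0.968, 0.916), and Cd83 to Klb (0.942, 0.832), Cep128 (0.942, 0.872) and Serinc5 (0.941, 0.834). Serinc5, a membrane protein that moves lipids between membrane leaflets, thus stood among the nearest genes of 3 members. In colon it was at 2427.3, 2787.3 and 2016.2 normalised reads in WT non-irradiated and 1117.3, 929.3 and 1021.8 in KO late.

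Slc43a3 was nearest to Atg10 (r = 0.961, rho 0.883), D330045A20Rik (0.952, 0.928) and Rgs17 (0.952, 0.907), and Tspan33 to the phosphate transporter Slc20a1 (0.951, 0.895), Ppl (0.944, 0.825) and Tbc1d24 (0.927, 0.846). Bmp3 was nearest to the manganese exporter Slc30a10 (0.981, 0.93), Gm2061 (0.971, 0.916) and the brush border protease Mep1a (0.947, 0.846). Slc30a10 was the highest single correlation of the 21, and like Bmp3 its KO early colon values were highest in mouse 120, at 727.9 normalised reads beside 266.5, 204.0 and 248.6 in mice 100, 117 and 118.

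Edn1 and Cd83 lie on the same chromosome, 13, with 23 annotated genes between them, of which 9 were in the table and 8 could be tested. None of the 8 was called lower or higher in KO late against WT non-irradiated colon, at log2 differences from -1.12 (Gfod1) to 1.22 (Rnf182), with the lowest limma adjusted p at 0.105 and 4 of the 8 at an unadjusted p under 0.05. Over all 19145 genes tested in colon, 1.46% were called lower and 1.02% higher, so nothing is read from this count. Prss23 and Plekha1 both lie on chromosome 7 but have 1092 annotated genes between them.

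Because Edn1 and Cd83 are also known from endothelial and immune cells, markers of these cells are given beside them. In KO late against WT non-irradiated colon none of 10 endothelial, 8 leukocyte, 5 B and plasma cell or 11 myeloid and dendritic cell markers was called, and their median log2 differences were 0.70, 0.85, 0.71 and 0.97, opposite in sign to Edn1 and Cd83. At an unadjusted p under 0.05 with limma, 4, 1, 1 and 5 of them were higher and 0 lower. The summed endothelial markers (11 genes) came to between 489.1 and 1071.1 normalised reads in WT non-irradiated colon, 620.6 and 871.4 in WT irradiated, 662.8 and 812.1 in KO early and 824.6 and 1303.2 in KO late, with Cldn5 at 0 in WT non-irradiated and KO late. The summed myeloid and dendritic cell markers (11 genes) came to between 365.6 and 671 in WT non-irradiated, 375.5 and 580 in WT irradiated, 676.3 and 1252.9 in KO early and 753.5 and 973.4 in KO late. The endothelial sums of KO early colon lay within the wild-type range, and the myeloid sums of both KO groups lay above it. The lowest myeloid sum of KO colon, 676.3, was close to the highest of wild-type colon, 671. Cd14 alone ranged from 57.1 to 673.5 over the colon libraries, so a single gene can carry much of the myeloid sum. The receptor reads were also highest in KO late colon. The part of these cells in the lower levels of Edn1 and Cd83 was not tested.

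Some markers of epithelial subtypes were called in KO late against WT non-irradiated colon, where 1.46% of all genes were called lower and 1.02% higher. Of the enteroendocrine markers 5 of 9 fell, of the surface colonocyte markers 4 of 9, of the tuft cell markers 2 of 6, of the ileal enterocyte markers 2 of 9, of the goblet cell markers 1 of 9 and of the stem cell markers 1 of 8. Of the Paneth cell markers 2 of 6 fell and 2 rose, and of 8 general epithelial markers and 9 markers of colonic identity none was called by limma (at an unadjusted p under 0.05, 0 of the 8, and 4 lower and 1 higher of the 9). The summed enteroendocrine markers (10 genes) went from between 3101.2 and 3581.7 normalised reads in WT non-irradiated colon to between 502 and 1164.4 in KO late, with 1505.4 to 3326.9 in WT irradiated and 736.4 to 2251.1 in KO early. The summed surface colonocyte markers (9 genes, among them Slc20a1) went from between 97873 and 152540 to between 59894 and 81298, with 78626 to 111690 in WT irradiated and 62833 to 108890 in KO early. From WT non-irradiated to KO late colon, Paneth sums went from 4421.2 to 8819.9 down to 381.6 to 545.3. Ang4 of that list alone ranged from 28.3 to 8222.3 over the colon libraries. Goblet sums went from 256220 to 451740 down to 66206 to 165800, and colonic identity sums from 69368 to 100650 down to 30854 to 68615. The general epithelial and stem cell sums of these groups overlapped. The part of these subtypes in the lower levels of the 7 genes was not tested.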

How the data were processed

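RNA from sorted epithelium of 12 mice (24 libraries) was measured. Per the labels' protocols, libraries were made from 100 ng of total RNA, depleted of ribosomal RNA, with a kit that keeps strand, and run on 3 lanes to give 50 bp single-end reads; the molecule label, in contrast, names polyA RNA. Per the submitters' processing notes, bcl2fastq, HISAT 0.1.6 and HOMER were used with build mm9; strand use in counting was not given in the sources used here, and overlapping genes are uncertain. The authors deposited 1 signal per gene and library, namely reads over a library's size factor, rounded to 1 decimal. In all 24 libraries the low values were whole multiples (within 0.05 normalised reads) of 1 step between 0.698 and 2.22, and the scaling equalled median-of-ratios scaling.

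The main test was limma-trend (limma 3.58.1, R 4.3.3) of log2(value + 1), for genes reaching 10 normalised reads in 2 or more libraries of the fit, with Benjamini-Hochberg adjustment over all genes and calls under 0.05. All 7 genes passed this filter in both tissues. Fits within a tissue used its 4 groups with 1 shared spread, and colon against ileum and the interaction used 24 libraries as 8 groups. Mouse numbers were the replicates. No pair of libraries held the same values (lowest chi-square 15.5 per gene over 276 pairs). The labels give colon and ileum of 1 mouse the same number, so they are paired, and their deviations from the group means correlated at r = -0.36 to 0.70 across genes.

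The recovered reads also went into edgeR 4.0.16 and DESeq2 1.42.0. Other alternatives were log2 CPM with TMM, a pseudocount of 5, no filter, the groups compared alone, receptor reads as a covariate, mouse as a block, both wild-type groups as control, and leaving out each mouse. The fit was tested on simulated data. Named genes were the members, for each the 3 most correlated genes over colon libraries, called members of the lists with the smallest p (at most 3), genes between neighbouring members, and genes at the threshold. Ece1, Ednra, Ednrb, Adam10, Plekha2, Prss22, H2-Aa and Bmp2 in colon were named after their values were seen. The members, lists and markers were chosen with earlier results of these data known. Some genes are not reported here and were left out of the counts over the lists.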

Additional observations from a re-analysis of the deposited data

Results flagged for a closer look

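Slc43a3 in KO early ileum stood at 31.0 normalised reads in mouse 100, while the other 3 mice lay between 45.3 and 45.9. The gap was 0.96 of the group's range, which marks that library as far from the others. Of 14 groups of this size 1 was marked in this way, and chance marks about 1 group in 20. The ileum library of mouse 100 had the largest step of all, with 1 read counting as 2.22 normalised reads. It also had the highest Rn45s share, 29.4%, so its low values rest on few reads.

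Prss23 differed between tissues in its KO late difference from WT non-irradiated, by -4.62 on the log2 scale (limma adjusted p = 0.00192, 3 mice against 3). Whether a fall specific to colon counted in its choice is not stated, so this difference may not be independent of the choice.

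Tspan33 moved in opposite directions in KO early against WT irradiated mice. It was at -1.09 on the log2 scale in colon and at 1.55 in ileum, with no overlap between the groups in either tissue. The gene was chosen for a fall specific to colon, by a contrast that is not stated, so the difference between tissues was not tested.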

How the results depend on the processing

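Of 325 values of single genes under the alternatives, 296 kept their direction and their side of the threshold, 8 lost and 8 gained a call, and 13 turned in sign. Of the 5 genes in KO late against WT non-irradiated colon, 4 were called, and 2 without the filter or with receptor reads as a covariate, where Edn1 and Plekha1 were lost (without the filter, limma adjusted p = 0.0772 and 0.0503). Leaving out each mouse gave 3 to 5. Edn1 was lost without KO late mouse 50 (0.06), WT non-irradiated mouse 72 (0.0652) or 73 (0.0719), all limma adjusted p. Slc43a3 was called by DESeq2 (adjusted p = 0.0324), with both wild-type groups as control (limma adjusted p = 0.0326) and without mouse 75. Prss23 and Cd83 were called in all 14 alternatives. In the interaction 1 gene was called, 3 with the replicate block and 3 with DESeq2 (Plekha1 at an adjusted p of 0.0314 and Cd83 at 0.00356 there), and 1 to 2 without each mouse, Cd83 being added without mouse 75 (limma adjusted p = 0.0345). In colon against ileum 3 were called, and 2 to 3 without each mouse; the block changed no call there. In both ileum comparisons 0 were called throughout.

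The sign turned only where no call was made. In KO early ileum, Slc43a3 turned to -0.175 with the covariate and Cd83 to 0.0332 with edgeR, 0.125 with DESeq2 and, without KO early mouse 100 or 120 or WT irradiated mouse 61, to 0.166, 0.0181 and 0.218 (lowest without a mouse -0.303). In KO late ileum, Prss23 turned to 0.0846 with the covariate and to 0.178, 0.0656 and 0.0620 without mouse 50, 72 or 75 (lowest -0.236), and Plekha1 to -0.101 without mouse 73 (highest 0.235). In colon against ileum, Prss23 turned to -0.133 and Plekha1 to -0.0745 without mouse 73 (highest 0.300 and 0.565). The cause was not tested.

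Counts over all genes moved more. In KO late colon, 196 higher and 280 lower became 440 and 811 with DESeq2, 69 and 40 without the filter, 76 and 23 with the covariate, 309 and 479 with both wild-type groups, and 74 to 4688 and 54 to 2944 without each mouse, the highest without WT non-irradiated mouse 75. In the interaction, 44 and 17 became 462 and 313 with the replicate block, 87 and 130 with DESeq2, and 12 to 161 and 3 to 54 without each mouse, and the lower count became 51 with only the groups compared. In colon against ileum, 1620 higher and 1251 lower became 955 to 1589 and 820 to 1136 without each mouse, and the lower count 2154 with the covariate. In KO early ileum, 0 and 0 became 1 and 10 without the filter and 5 and 1 with the covariate. In KO late ileum they became 4 and 2 with only the groups compared, 8 and 2 with the covariate, and 1 lower without mouse 73. At this depth all 7 genes passed the filter in both tissues. Edn1 in ileum is limited by the spread between mice (SE 0.83 in KO late against WT non-irradiated, beside 0.39 for Slc43a3 and 0.34 for Cd83), and WT irradiated by its 2 mice.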
